A study of Mus musculus with 6 samples.

Results

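Genes that are lower in RAW264.7 cells, a mouse macrophage line, after culture in extract of a degradable zinc-lithium alloy scaffold (the G scaffold group) than in untreated cells (Control) include an integrin chain, transporters, receptors for lipids and nucleotides and a retinoic acid receptor. The genes described here are the listed genes whose mean normalized count is lower in G scaffold than in Control, other than 7 osteoclast, Siglec and macrophage perforin genes (Acp5, Ctsk, Atp6v0d2, Gpnmb, Cd33, Siglech and Mpeg1). They number 51 of the 345 genes in the deposited table, in which 58 genes are lower and 287 higher. The Control group holds 3 libraries from cells with no added extract, and the G scaffold group holds 3 libraries from cells kept for 48 h in diluted extract of the gyroid scaffold. All 6 libraries come from 1 established line with no other treatment named in the labels. The labels do not say whether the replicates are separate cultures, so the spread between them may be technical. The values that chose the 51 genes are the same ones described below, so the differences are a description and no test is read from them.

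Macrophages hold to matrix and to other cells through integrins and immunoglobulin-family receptors, and they sense lipids and nucleotides through G protein-coupled receptors. They also export cholesterol, break down lipid mediators and set their gene programme through nuclear receptors and corepressors. The 51 genes touch each of these functions, with 6 genes for adhesion and the cell surface, 4 for G protein-coupled receptors, 5 for transport and trafficking and 5 for transcription and RNA. Another 7 encode enzymes, 9 encode signalling, cytoskeletal and other proteins, 5 are non-coding RNAs and 10 are unnamed or uncharacterised. These function groups were written after the values were seen.

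The promoters of 4 genes are shown because they belong to the gene with the most reads (Itga4), the gene with the largest difference on the log2(value + 1) scale (Ranbp3l), and a pair with large differences whose promoters hold a metal response core (Trp53i11 and Rarb). The sequences are from RefSeq, build GRCm38.p6, and hold 300 bases around the gene start, from 250 before to 50 after it, 5′ to 3′ on the strand of the gene. Capitals mark matches on either strand to the metal response element core (TGCACNC or TGCGCNC), the PU.1 core (GAGGAAG), the E-box (CACGTG), the AP-1 site (TGANTCA), the GC box (GGGCGG), the TATA box (TATAAA) and a direct repeat bound by retinoic acid receptors (GTTCA and AGTTCA with 5 bases between them).
Itga4 (chr2:79255176-79255475, plus strand): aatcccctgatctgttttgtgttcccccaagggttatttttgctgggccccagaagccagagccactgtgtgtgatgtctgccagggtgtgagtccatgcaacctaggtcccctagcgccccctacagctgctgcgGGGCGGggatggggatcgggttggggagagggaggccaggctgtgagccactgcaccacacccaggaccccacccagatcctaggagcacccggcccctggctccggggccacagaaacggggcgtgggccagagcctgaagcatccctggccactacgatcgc
Ranbp3l (chr15:8967699-8967998, plus strand): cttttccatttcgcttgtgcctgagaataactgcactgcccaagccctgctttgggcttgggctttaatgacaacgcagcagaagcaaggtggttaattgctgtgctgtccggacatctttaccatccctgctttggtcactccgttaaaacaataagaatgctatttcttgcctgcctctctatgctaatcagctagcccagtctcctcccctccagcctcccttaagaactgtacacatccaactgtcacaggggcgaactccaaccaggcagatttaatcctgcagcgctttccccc
Trp53i11 (chr2:93187298-93187597, plus strand): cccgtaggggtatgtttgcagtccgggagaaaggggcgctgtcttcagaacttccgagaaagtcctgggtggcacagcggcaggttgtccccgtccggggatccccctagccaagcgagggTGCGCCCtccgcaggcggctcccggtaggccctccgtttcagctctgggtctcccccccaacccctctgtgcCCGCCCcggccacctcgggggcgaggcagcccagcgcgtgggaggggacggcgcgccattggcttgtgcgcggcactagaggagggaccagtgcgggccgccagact
Rarb (chr14:16575427-16575726, minus strand): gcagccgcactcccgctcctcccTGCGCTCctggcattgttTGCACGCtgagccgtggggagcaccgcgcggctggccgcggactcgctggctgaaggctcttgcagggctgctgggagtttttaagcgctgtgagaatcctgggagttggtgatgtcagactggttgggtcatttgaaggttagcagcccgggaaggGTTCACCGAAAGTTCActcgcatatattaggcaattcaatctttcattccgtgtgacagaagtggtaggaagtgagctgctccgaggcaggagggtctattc
The Itga4 promoter holds 1 match, a GC box, and the Ranbp3l promoter holds none. The Trp53i11 promoter holds a metal response core and a GC box. The Rarb promoter holds 2 metal response cores and the direct repeat, which was searched after the sequence was seen.

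Promoters were found for 31 of the 51 genes, with 47 start sites in all. The metal response core, which is bound by the zinc-sensing factor of the metallothionein genes, is in 27.7% of these 47 promoters and in 25.7% of all 32851 promoters of the same length. The PU.1 core, read by a lineage factor of macrophages, is in 12.8% against 13.6%. The GC box is in 38.3% against 35.7%, and the TATA box in 17.0% against 13.6%. The AP-1 site is in 4.26% against 7.81%, with matches in Havcr2 and Slc9a9. The E-box is in 12.8% against 7.15%, and its 6 promoters belong to 5 genes (Abca1, Dnase1, Mxd4, Ndrg4 and P2ry12). The direct repeat is in 1 of the 47 promoters, that of Rarb, and in 11 of all promoters. These shares are a description of letters in a window. They rest on few promoters, some of which are start sites of the same gene, and the promoters of 20 genes were not matched.

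The unit below is the normalized count, which is the number of reads on a gene after the authors scaled each library by its own size factor. Divided by the smallest value above 0 of the library, 100% of the values are whole to within 0.001, so the reads behind them can be recovered. Values of single libraries are given in the order of replicates 1, 2 and 3. Over the 345 listed genes, the libraries hold 88836 to 100895 reads in Control and 150056 to 156029 in G scaffold, which is not the sequencing depth. The table holds selected genes, so the absence of a gene says nothing of its level. None of the 51 genes is among 30 markers of 7 cell types other than macrophages. Of those 30, only Col1a1 and Tubb3 are listed, with summed levels of 0 to 0.955 normalized counts in Control and 7.83 to 23.2 in G scaffold. In bulk RNA, fewer cells that express a gene and less RNA per cell cannot be told apart.

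The 51 genes hold 57.5 to 59.3% of the listed-gene reads in the Control libraries and 11.8 to 15.2% in the G scaffold libraries. Summed over the 51 genes, the level is 55380.0 to 57009 normalized counts in Control and 18023 to 23249 in G scaffold. Itga4 alone makes up 52.6 to 56.6% of their reads in Control and 48.4 to 57.7% in G scaffold. Without Itga4 the sums are 24056 to 26242 and 9271 to 10379 normalized counts. The summed level of the G scaffold libraries is lower with and without Itga4.

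**Figure D1:**
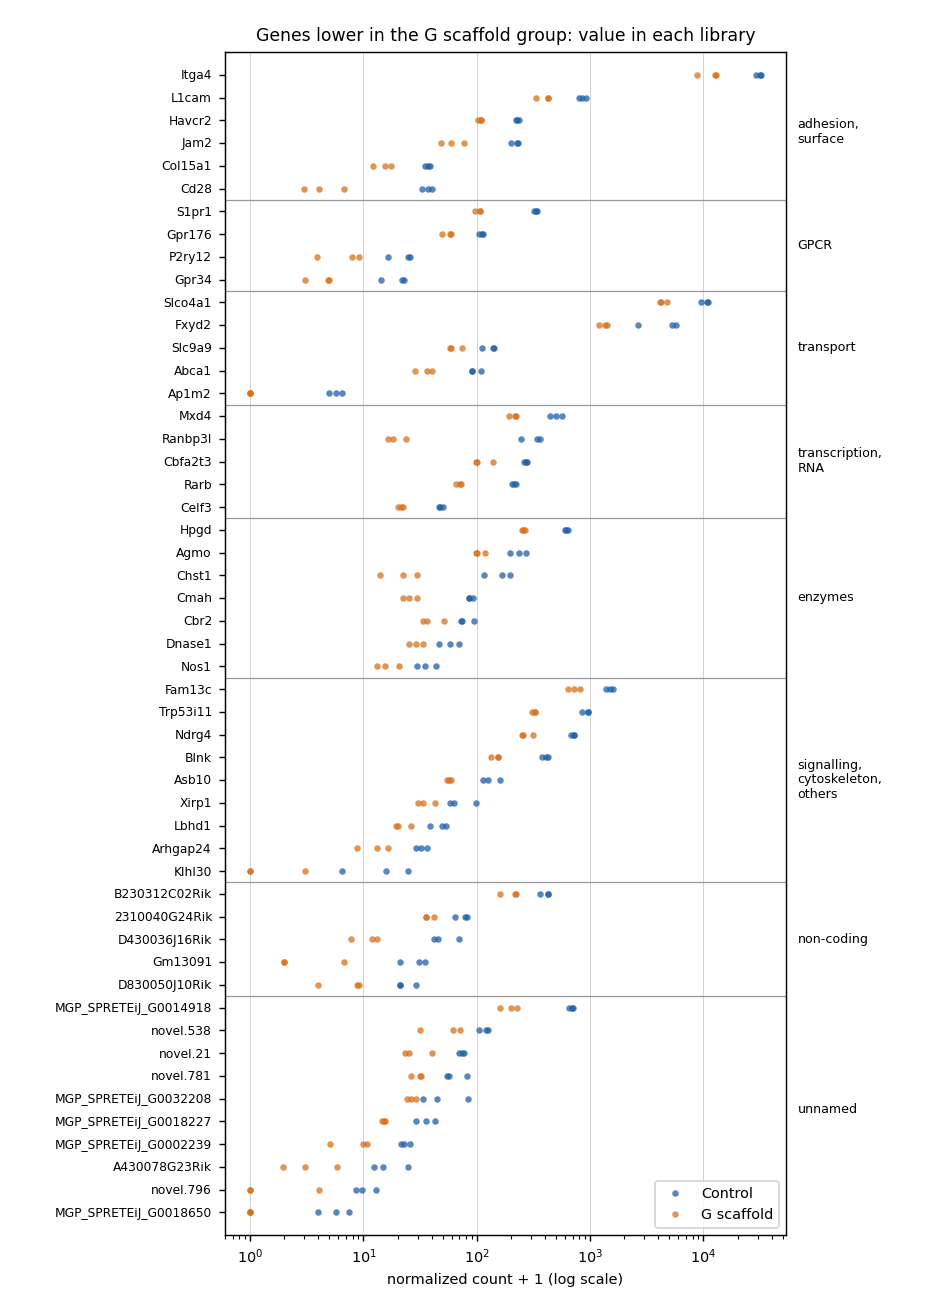
Normalized count plus 1 (log axis) of the 51 genes in each of the 3 Control libraries (blue) and 3 G scaffold libraries (orange), in rows grouped by function and ordered by Control mean. In every row the 3 orange points lie to the left of the 3 blue points, and the Control libraries run from 2.98 (MGP_SPRETEiJ_G0018650) to 31979 normalized counts (Itga4).

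The Control means run from 4.72 to 30838 normalized counts, with a median of 86.5 against 14.7 over the whole table. By Control mean, 4 genes are at 1000 or above, 20 between 100 and 1000, 24 between 10 and 100 and 3 below 10. Thus 47.1% of them reach 100 normalized counts in Control, against 22.6% of the table. A gene must have reads in Control to be lower with the extract, so the rule itself acts on this level. In the G scaffold group the mean is under 25% of Control for 11 genes, between 25% and 40% for 17 and between 40% and 50% for 23. The median is 38.8% of Control.

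On the scale of log2(normalized count + 1), the median difference of G scaffold minus Control is -1.37 over the 51 genes and 1.87 over the table. With the 2 genes at 0 in every G scaffold library set to their bound, the median is -1.30. The groups do not overlap in 51 of the 51 genes. Counting both directions, they do not overlap in 344 of the 345 genes of the table, and 16.8% of the table is lower without overlap. The difference is at or below -1 in 48 genes, against 15.9% of the table. With an adjusted p threshold of 0.05 and the same limit on the difference, limma calls 48, against 15.9% of the table called lower. These shares of the table count lower genes only, while the 51 genes are all lower by rule. Over the table limma calls 55 genes lower and 285 higher, and 58 and 135 with TMM factors computed over these selected genes alone. The remaining 3 genes are Gpr176, Dnase1 and the unnamed MGP_SPRETEiJ_G0032208, with differences of -0.99, -0.98 and -0.93. The rule used this contrast, so nothing is read from these counts. Nearest to an equal mean are Gpr176 at 49.9% and Cbr2 at 49.7% of Control on the lower side, and S100a11 at 201% and Chpf at 203% on the higher side. No listed gene lies between them, and the table holds only genes past the authors' limits on adjusted p and fold change.

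**Figure D2:**
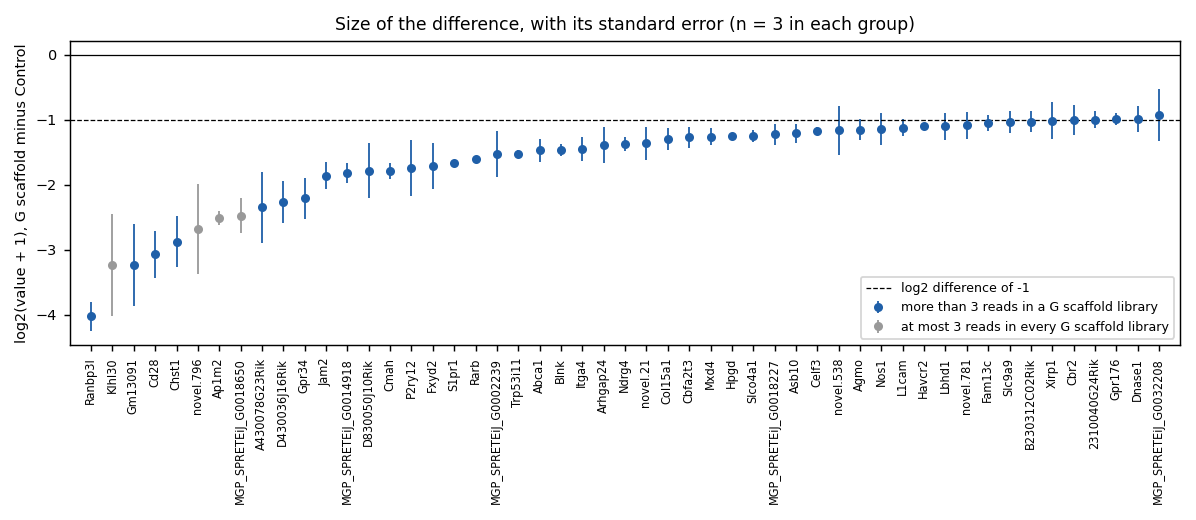
Difference of log2(normalized count + 1), G scaffold minus Control, for the 51 genes, with the standard error from 3 libraries in each group as bars. Ranbp3l lies lowest at -4.03, the 4 grey genes hold no more than 3 reads in any G scaffold library, and 3 genes at the right end lie above the dashed line at -1.

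Among the adhesion and surface genes, Itga4, the alpha chain of an integrin that binds fibronectin and vascular cell adhesion molecule, has the highest counts of the 51 genes. It is listed on chromosome 2 from 79145833 to 79229760, and it has normalized counts of 29138, 31979 and 31398 in Control against 8729, 12639 and 12869.9 in G scaffold. The groups are far apart, and G scaffold replicate 1 lies below the other two. The mean is 37.0% of Control, with a log2 difference of -1.45 (standard error 0.187). Without G scaffold replicate 1 the difference is -1.27. L1cam, an adhesion molecule of the immunoglobulin superfamily best known from neurons, has normalized counts of 793, 919.8 and 846 in Control against 332, 419.7 and 426 in G scaffold. The groups do not overlap, and the mean is 46.0% of Control. Jam2, a junctional adhesion molecule, has normalized counts of 226, 199 and 230.3 in Control against 58.5, 47.3 and 75.4 in G scaffold, and at 27.7% of Control its mean is the lower of the pair.

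Cd28, best known as a costimulatory receptor of T cells, has normalized counts of 35.8, 39.0 and 31.5 in Control against 3.02, 5.79 and 1.96 in G scaffold. Every G scaffold library holds at least 2 reads and at most 6, all below the Control libraries, so the log2 difference of -3.07 (standard error 0.360) rests on few reads. None of 5 T cell markers is among the listed genes. Havcr2, which encodes the inhibitory receptor TIM-3, has means of 227 ± 9.03 normalized counts in Control and 105 ± 3.55 in G scaffold (SD, n = 3 in each), with 3.98% and 3.38% as coefficients of variation within the groups. Col15a1, a collagen of basement membrane zones, has normalized counts of 33.8, 35.7 and 37.3 in Control against 11.1, 14.5 and 16.6 in G scaffold. These libraries do not overlap either, and the 6 adhesion and surface genes lie between 10.1% and 46.3% of Control. Of 6 listed genes from collagen and other matrix families, Col15a1 is the only lower one, against 16.8% of the table lower.

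The 4 G protein-coupled receptors include S1pr1, the receptor for sphingosine phosphate that guides immune cell egress. It has normalized counts of 331, 316 and 339 in Control against 106, 105 and 95.9 in G scaffold. The values are tight in both groups, and the log2 difference is -1.67 (standard error 0.0543). P2ry12, the ADP receptor of microglia and platelets, has normalized counts of 23.8, 24.9 and 15.3 in Control against 8.06, 2.89 and 6.85 in G scaffold. Gpr34, a lysophospholipid receptor also known from microglia, has normalized counts of 20.9, 21.6 and 13.4 in Control against 2.02, 3.86 and 3.92 in G scaffold. Both are low in Control and lower still in every G scaffold library, at 27.8% and 17.5% of Control. Of a list of 16 microglia genes, 3 are in the table (P2ry12, Gpr34 and Siglech, which the rule leaves out). All 3 are lower, against 16.8% of the table, and so few genes give no more than a count. Gpr176, an orphan receptor, has normalized counts of 112, 104 and 111 in Control against 57.5, 57.9 and 48.0 in G scaffold, which places it at the edge of the set. By symbol family, 4 of 10 listed receptors of this class are lower and 6 are higher, against 16.8% lower in the table.

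Among transport genes, Slco4a1, an organic anion transporter, has normalized counts of 10745, 9433 and 11010.2 in Control against 4233, 4153 and 4751 in G scaffold. The difference is large against the replicate spread, with means of 10396 ± 845 normalized counts in Control and 4379 ± 325 in G scaffold (SD, n = 3 in each). Fxyd2 encodes the gamma subunit that modulates the sodium pump, and it has normalized counts of 5267, 5741 and 2660.1 in Control against 1352, 1189.6 and 1419 in G scaffold. Control replicate 3 holds far fewer reads than the other Control libraries yet stays above the G scaffold libraries. The log2 difference is -1.71 (standard error 0.359), and it is -2.06 without Control replicate 3. Abca1, which exports cholesterol to apolipoproteins, has normalized counts of 90.4, 108 and 88.9 in Control against 35.3, 39.6 and 27.4 in G scaffold. It is 1 of 2 listed genes from a lipid-handling list of 20, and the other, Fabp4, is higher.

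Slc9a9, a sodium-proton exchanger of endosomes, has means of 129.7 ± 16.7 normalized counts in Control and 62.8 ± 9.40 in G scaffold (SD, n = 3 in each) and lies at 48.4% of Control. Of 6 listed solute carrier genes, Slco4a1 and Slc9a9 are lower and 4 are higher, against 16.8% of the table lower. From a list of 28 zinc transport and storage genes 3 are listed (Mt1, Mt2 and Slc30a1), and none is lower. Ap1m2, a subunit of a clathrin adaptor of epithelial cells, has normalized counts of 3.97, 5.41 and 4.78 in Control against 0, 0 and 0 in G scaffold. At this depth its level in G scaffold is not detectable, and it is at least 1.60-fold lower against a floor of 3 reads per library. The floor covers counting error only.

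Compared by gene length, the order of the highest genes changes. Fxyd2, with a listed length of 532 bases, has 8563 normalized counts per kb in Control and 2481 in G scaffold, the highest of the 51 in both. Itga4, with 14038 bases, has 2197 per kb in Control and Slco4a1 has 2169, a difference smaller than the spread between Control libraries. Next are Fam13c with 422 and Hpgd with 344 per kb. Ranbp3l, at 101 per kb in Control, is at 5.92 per kb in G scaffold.

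**Figure D3:**
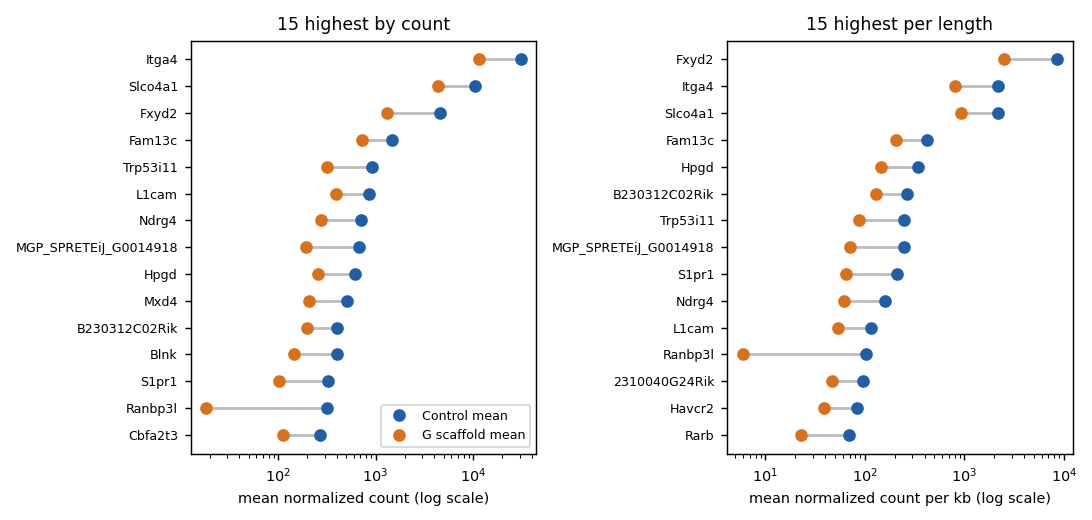
Mean of the 3 Control (blue) and of the 3 G scaffold libraries (orange), on log axes. The left panel shows normalized counts for the 15 genes with the highest Control mean. The right panel shows normalized counts per kb of listed gene length for the 15 genes highest in Control on that scale. The genes of the panels differ in part. Itga4 leads by count and Fxyd2 leads per length, and Ranbp3l has the longest line in both panels.

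Ranbp3l, a Ran-binding protein linked to nuclear export, has the largest difference of the 51 genes on the log2(value + 1) scale. By the ratio of means Klhl30, at 4.56% of Control on few reads, and the 2 genes at 0 with the extract lie lower, and with pseudocount 0.1 these 3 and an unannotated transcript beside Siglech do. Ranbp3l has normalized counts of 358, 247 and 340.2 in Control against 17.1, 15.4 and 22.5 in G scaffold. The highest G scaffold library is at 9.13% of the lowest Control library, and the log2 difference is -4.03 (standard error 0.227). Rarb, a nuclear receptor for retinoic acid, has normalized counts of 219, 205 and 212 in Control against 70.6, 64.6 and 71.5 in G scaffold. Its coefficient of variation is 3.33% in Control and 5.38% in G scaffold, and its log2 difference is -1.61 (standard error 0.0527). Cbfa2t3, a transcriptional corepressor of blood cells, has normalized counts of 258, 274 and 273 in Control against 99.8, 97.4 and 138 in G scaffold. It has one of the smallest Control spreads, while G scaffold replicate 3 is above the other G scaffold libraries. Mxd4, a partner of MAX that opposes MYC, has normalized counts of 566, 442 and 503 in Control against 189.5, 217 and 220.3 in G scaffold, and lies at 41.5% of Control. Celf3, an RNA-binding splicing regulator, is at 43.1% of Control.

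Of the 7 enzyme genes, Chst1, which adds sulfate to keratan sulfate, has the largest difference. It has normalized counts of 196, 114 and 167 in Control against 13.1, 28.9 and 21.5 in G scaffold. The spread is wide in both groups, but the highest G scaffold library is at 25.5% of the lowest Control library, and the log2 difference is -2.88 (standard error 0.392). Hpgd, which inactivates prostaglandins, has normalized counts of 635, 601 and 616 in Control against 265, 252 and 256 in G scaffold. It has the smallest Control spread of the genes with a Control mean of at least 20, at 2.79%, and a log2 difference of -1.26 (standard error 0.0320). Cmah, which makes the sialic acid N-glycolylneuraminic acid, has means of 86.5 ± 3.83 normalized counts in Control and 24.6 ± 3.63 in G scaffold (SD, n = 3 in each), at 28.4% of Control. Cbr2, a carbonyl reductase, has normalized counts of 71.5, 93.1 and 73.6 in Control against 50.4, 35.7 and 32.3 in G scaffold, and its groups are separated by a narrow gap. The ether lipid monooxygenase Agmo, the neuronal nitric oxide synthase Nos1 and the endonuclease Dnase1 lie at 44.4%, 44.0% and 49.3% of Control.

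Among the signalling, cytoskeletal and other genes, Trp53i11, a gene induced by p53, has normalized counts of 955, 851 and 951 in Control against 307, 322 and 327 in G scaffold. The coefficient of variation of the G scaffold libraries is 3.19%, and the log2 difference is -1.52 (standard error 0.0607). Of 19 genes on a p53 target list, 4 are listed in the table, and the other 3 (Plk2, Plk3 and Sesn2) are higher. Ndrg4, of the NDRG family, has normalized counts of 672, 726 and 722 in Control against 257, 252 and 313 in G scaffold, at 38.8% of Control. Fam13c has normalized counts of 1505, 1367 and 1589 in Control against 637, 712 and 809.6 in G scaffold, at 48.4% of Control. Blnk, an adaptor of B cell receptor signalling that macrophages also use, has normalized counts of 427, 378 and 403 in Control against 153, 152 and 131 in G scaffold. In all 3 genes the groups are apart, and Blnk has the largest of the differences, -1.46 (standard error 0.0892).

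Arhgap24, a GTPase-activating protein for Rac, has normalized counts of 27.8, 31.4 and 35.4 in Control against 12.1, 15.4 and 7.83 in G scaffold. Xirp1, an actin-binding protein known from striated muscle, has normalized counts of 56.6, 97.4 and 62.1 in Control against 41.3, 32.8 and 29.4 in G scaffold. Its Control spread of 30.7% comes mostly from replicate 2, and the highest G scaffold library is at 73.0% of the lowest Control library. Klhl30, of the kelch-like family, has normalized counts of 14.9, 5.41 and 23.9 in Control against 2.02, 0 and 0 in G scaffold. For it, 45 reads over the Control libraries against 2 give a ratio of 23.1 after scaling (95% exact binomial interval 6.02 to 196, counting error only), and its Control libraries differ widely. Asb10, of the SOCS box family, and Lbhd1 lie at 42.4% and 45.4% of Control.

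The 5 non-coding RNAs have Control means of 22.7 to 404 normalized counts. The lincRNA B230312C02Rik has the most reads, with normalized counts of 363, 427 and 420.4 in Control against 215, 160.2 and 219 in G scaffold. It lies at 49.1% of Control, with no overlap between the groups. Gm13091 has the largest difference of the 5, with normalized counts of 29.8, 33.5 and 20.1 in Control against 1.01, 5.79 and 0.979 in G scaffold. The log2 difference is -3.23 (standard error 0.628) and is -3.82 without G scaffold replicate 2. D430036J16Rik, D830050J10Rik and 2310040G24Rik have 51.5, 22.7 and 74.0 normalized counts in Control and lie at 19.2%, 27.5% and 49.1% of Control. Gm13091 and D430036J16Rik are annotated as antisense, and whether the counting used strand is not given in the sources used here, so reads of an overlapping gene on the other strand cannot be told apart.

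Of the 10 unnamed or uncharacterised genes, MGP_SPRETEiJ_G0014918 (chromosome 1 from 45460979 to 45540146) has the most reads, with normalized counts of 656, 695 and 698 in Control against 159, 199 and 227 in G scaffold. It lies at 28.6% of Control, with a log2 difference of -1.82 (standard error 0.151). MGP_SPRETEiJ_G0032208 has normalized counts of 32.8, 83.3 and 44.0 in Control against 23.2, 28.0 and 25.5 in G scaffold. Control replicate 2 is far above the other Control libraries, and the log2 difference is -0.93, or -0.56 without that library. Other members of the group with more reads are unannotated transcripts on chromosome 2 (181070464 to 181073690) and chromosome 1 (131998710 to 132001439), with means of 115 and 72.7 normalized counts in Control and 53.8 and 28.5 in G scaffold. The table pairs an unannotated transcript of chromosome 7 from 869522 to 902158, at 45.5% of Control, with the leukocyte receptor Lilrb3, a member of a family of close copies, so its reads are uncertain. MGP_SPRETEiJ_G0018227 and MGP_SPRETEiJ_G0002239 lie at 40.6% and 33.4% of Control. A430078G23Rik has means of 16.4 normalized counts in Control and 2.63 in G scaffold.

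The remaining unnamed genes are near the counting limit. MGP_SPRETEiJ_G0018650 has normalized counts of 2.98, 6.49 and 4.78 in Control against 0, 0 and 0 in G scaffold, and is at least 1.61-fold lower. An unannotated transcript of chromosome 7 from 44068604 to 44069148 has normalized counts of 11.9, 8.66 and 7.64 in Control against 3.02, 0 and 0 in G scaffold. Here 28 reads over the Control libraries against 3 give a ratio of 9.56 after scaling (95% exact binomial interval 2.95 to 49.1, counting error only). The transcript starts at the base after the end of Siglech and lies on the other strand, and Siglech is also lower. Whether the reads of the pair are separable was not tested.

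Most gene lists related to macrophages hold few of the 51 genes. No listed gene belongs to the lysosome (36 genes), sterol synthesis (24), cell cycle (25), complement (15) or antigen presentation (15) lists. Of 16 osteoclast genes 5 are listed, and the 4 lower ones (Acp5, Atp6v0d2, Ctsk and Gpnmb) are among the 7 left out by the rule, while Mmp9 is higher. The lysosome list does not hold Acp5, Atp6v0d2, Ctsk or Gpnmb, so it does not cover every lysosomal product among the lower genes. By symbol, none of 4 listed ion channel genes is lower, and the only sulfo- or sialyltransferase is Chst1. Both listed CD antigens by symbol, Cd28 and Cd33, are lower, as are 2 of 3 genes matched by a symbol pattern for immunoglobulin and lectin receptors (Jam2 and Siglech). That pattern leaves out other immunoglobulin-family genes, such as Havcr2 and L1cam. Against 16.8% of the table lower, these lists are too short for more than their counts.

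The positions in the table follow the SPRET/EiJ annotation that the identifiers name. Of 40 named genes found in RefSeq, 40 are on the same chromosome in GRCm38 but only 1 overlaps its GRCm38 span, so positions of the table and of the promoters are not mixed. Chromosome 2 holds 7 of the 51 genes and 30 of the 345. On it, Slco4a1 (181122777 to 181141488), B230312C02Rik (181033053 to 181048637) and the unannotated transcript described above lie together. The gap is 74.1 kb between Slco4a1 and B230312C02Rik. The unannotated transcript lies between them, 49.1 kb from Slco4a1 and 21.8 kb from B230312C02Rik. The 3 genes are at 42.1%, 49.1% and 46.7% of Control. Over all 51 genes, 6 pairs with another listed gene lie within 100 kb, and in 4 of them the neighbour is lower, against 16.8% of the table. Of these 4, 3 are the pairs among the genes just described, and the fourth is the transcript beside Siglech. Within 1000 kb there are 29 pairs, of which 6 have a lower neighbour. The other two pairs within 100 kb are Asb10 beside 4931409K22Rik and Jam2 beside Mir155hg, where the neighbour is higher.

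The spread between libraries is a description too, since the authors' adjusted p-values, on which genes entered the table, depend on it. The median coefficient of variation over the 51 genes is 12.2% in Control and 17.5% in G scaffold, against 21.7% and 14.9% over the table. For genes with a Control mean of at least 100 the medians are 7.51% and 11.3% for 24 of the 51 genes, and 7.77% and 8.58% for 78 of the table. This limit is on the Control level only, so the G scaffold levels are not matched. Against counting error alone, the chi-square per degree of freedom has a median of 1.33 in Control and 1.18 in G scaffold, against 1.11 and 1.40 over the table. With a Control mean of at least 100, its medians are 2.58 and 2.20 for the 24 genes, against 2.47 and 3.45 for the 78. The chi-square per degree of freedom is over 3 in 17 of the 51 genes in Control and in 13 in G scaffold, and in 65 and 93 of the 345. The highest values belong to Fxyd2 in Control (618) and Itga4 in G scaffold (475). Hpgd, S1pr1, Rarb and Havcr2 are below 1 in both groups, so their libraries differ by less than the counting error gives on average.

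**Figure D4:**
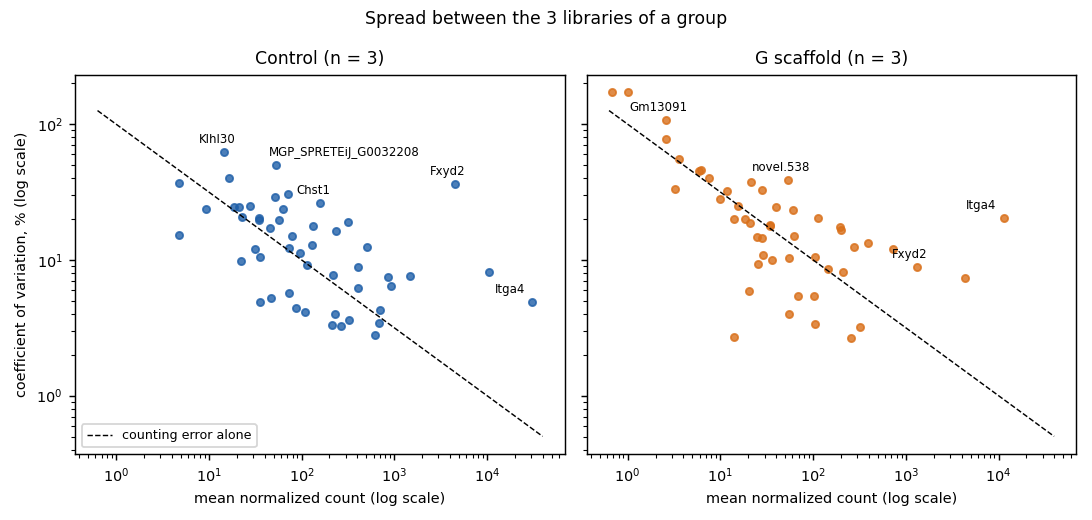
Coefficient of variation between the 3 libraries of a group against the mean normalized count, both on log axes, for the 51 genes in Control (left) and for the 49 genes above 0 in G scaffold (right); the dashed line is counting error alone. Fxyd2 lies far above the line in Control and Itga4 does so in G scaffold.

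No library is the highest or the lowest of its group throughout. In Control, replicates 1, 2 and 3 are the highest in 15, 23 and 13 of the 51 genes. In the G scaffold group the counts are 13, 14 and 24, and replicate 1 is the lowest in 22. Within a group, pairs of libraries differ by more than sampling noise over the listed genes, with a chi-square per degree of freedom of 2.76 to 6.79, so no library is counted as a duplicate. With any single library left out, the G scaffold mean is lower in 51 of the 51 genes, which is fixed because their groups do not overlap. Only 2 genes have a fold that moves by more than 1.5 times. These are the unannotated transcript beside Siglech, at -3.36 without G scaffold replicate 1 and -2.69 with it, and Gm13091, described above.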

How the data were processed

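RNA-seq of RAW264.7 cells was deposited as 1 table of 345 genes with 3 Control and 3 G scaffold libraries. The deposited signal values are reads per gene scaled by the authors with a size factor for each library. The study used an online platform, and the aligner and the counter are not given in the sources used here. For the differential expression the study names a two-sided t-test, and it selected genes by adjusted p (at most 0.05) and absolute log2 fold change (at least 1). The submitters' processing notes list GRCm38 and mm10, while the identifiers are those of SPRET/EiJ. The table also holds group means and the authors' fold changes, p-values and adjusted p-values, which were not used.

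The 51 genes, the gene lists and the rule for naming genes were chosen with earlier results of these data known. The rule takes the 10 highest Control means, the 10 largest differences with a Control mean of at least 100, genes that hold no more than 3 reads in any G scaffold library, the 2 genes on each side nearest to an equal mean, genes on the lists or named by the paper, and the 3 largest and 3 smallest Control spreads with a mean of at least 20. It names 32 genes, and the other 19 were named with their function after the values were seen. Dividing a library by its smallest nonzero value gave back the reads. Differences are means of log2(value + 1). Calls are from limma 3.58.1 in R 4.3.3, fitted over the 345 genes on group alone, with Benjamini-Hochberg adjusted p-values. The count tests edgeR 4.0.16 and DESeq2 1.42.0 on recovered reads were alternatives. Some results of the gene lists are not reported here. Figures used matplotlib 3.10.9 and tables pandas 2.3.3.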

Additional observations from a re-analysis of the deposited data

How the results depend on the processing

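The G scaffold mean was lower in 51 of the 51 genes under each scaling and each left-out library. The genes were chosen by this contrast and their groups do not overlap, so leaving out a library cannot reverse a mean. TMM factors and column totals were computed over the 345 listed genes alone, of which 287 are higher in G scaffold as deposited. TMM takes most genes as unchanged, which these selected genes are not, so neither setting says how the differences depend on normalization. The number of listed genes with a lower G scaffold mean, the 7 left out included, is 58 as deposited and 129 with these TMM factors. TMM factors move the median log2 difference of the 345 genes by -1.39 and column totals by -0.60. The median over the 51 genes, -1.37, becomes -2.81 with TMM factors, -1.99 with column totals, -1.09 with pseudocount 10, -1.24 over the 38 genes at 10 or more in every library, and -1.41 to -1.27 with 1 library left out. Pseudocount 10 leaves 32 of the 51 called. Over the table limma calls 55 genes lower and 285 higher, with TMM factors 58 and 135, and with a mean of at least 100 it calls 23 and 68 of the 92 left. At 10 or more in every library it calls 41 and 115 of 161, and with column totals 58 and 191. A mean of at least 100 keeps 19 genes, with 19 lower, 19 without overlap, 19 at or below -1 and 19 called, and median coefficients of variation of 6.43% in Control and 10.5% in G scaffold. With 1 library left out, 44 to 47 genes are called or lie at or below -1, and the median coefficients of variation are 8.44% to 12.2% in Control and 10.5% to 17.8% in G scaffold. The lowest of the latter is without G scaffold replicate 1. A difference at or below -1 with all libraries rises above it without 1 Control library for Slc9a9, Nos1, B230312C02Rik, Cbr2, 2310040G24Rik and Xirp1 and the Lilrb3-paired transcript. Without 1 G scaffold library it does so for the same genes and for Fam13c and the unannotated transcript of chromosome 2.

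With the replicate number as a replicate block, limma calls 48 of the 51, the same count as without it. Same-numbered libraries have deviations that correlate at -0.0713 to 0.00467 over the listed genes, and differently numbered ones at -0.0554 to 0.0889. The labels give no pairing, and whether same-numbered libraries share a culture or batch was not tested. On recovered reads (100% whole), edgeR and DESeq2 each call 51 of the 51, with 58 lower and 287 higher over the table and 16.8% of the table called lower. The table holds only genes past the authors' limits, and the same size factors were used, so these counts return that selection. Of the 32 genes named by rule, 0 change sign in any of these settings. They were chosen for a lower G scaffold mean and their groups do not overlap, so the choice left little room for a change of sign. TMM factors, column totals and pseudocounts 10 and 0.1 move 31, 29, 12 and 4 of them by more than 1 SD, and leaving out a library moves 0. The depth limits Ap1m2, Klhl30, the unannotated transcript beside Siglech and MGP_SPRETEiJ_G0018650, which hold no more than 3 reads in any G scaffold library.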
